A study of Mus musculus with 46 samples.

Results

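Messenger RNA of adult mouse hearts was compared 2 weeks after tamoxifen between 5 Lmna F/F hearts and 7 Lmna +/+ hearts, here called wild type. These 12 NEBNext poly(A) libraries were chosen, of 46 in the series, by the genotype, time, kit and column names that the labels give. Every mouse carried 1 Myh6MCM transgene (Myh6MCM Tg/0, written My6MCM Tg/0 for the F/F hearts), a Cre recombinase made in cardiomyocytes that becomes active on tamoxifen, so that only cardiomyocytes can lose floxed Lmna. F/F and wild type mice alike received tamoxifen in corn oil at 6 to 8 weeks of age, 100 μL of a 4 mg/mL solution on each of 4 days, so that effects of the drug and of the active Cre are shared. RNA came from whole perfused hearts and therefore holds all of their cell types. Both sexes and both sequencing pools occurred in each arm, but in unlike shares. F/F replicates 1 and 3 and wild type replicates 1 to 4 and 6 were male, and the others female. F/F replicates 1 and 2 and wild type replicates 1 to 5 were sequenced in pool KIUC033. F/F replicates 3 to 5 and wild type replicates 6 and 7 were sequenced in pool KIUC035. The sample titles give every library a heart number of its own.

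Lmna encodes lamins A and C, filaments that line the inside of the nuclear envelope, bear load and anchor chromatin. Cardiomyocytes contract around their nuclei all the time, and mutations of the human gene cause a dilated cardiomyopathy with conduction disease. When cardiomyocytes are injured they re-express fetal genes and lower their energy metabolism, while monocytes enter the tissue and fibroblasts deposit matrix.

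Total counts ran from 15955989 to 25650922 per F/F library and from 13824002 to 22070612 per wild type library. Levels below are normalised CPM (counts scaled to the library total and TMM factor). Differences are log2 fold changes of F/F over wild type with their SE (edgeR quasi-likelihood test, covariates pool and sex). A gene is called at a Benjamini-Hochberg adjusted p under 0.05. Lmna itself was at 48.4, 121, 125, 95.8 and 98.4 CPM in F/F replicates 1 to 5 and at 120 to 147 CPM in wild type libraries (median 125). The mean was 97.8 ± 30.6 CPM in F/F and 129 ± 9.08 in wild type (SD, n = 5 and 7, exact two-sided permutation p = 0.0253), while the edgeR log2 fold change was -0.46 ± 0.21 (adjusted p = 0.105). It was -0.14 without F/F replicate 1 (adjusted p = 0.321). Deposited TPM of Lmna averaged 59.5 for F/F hearts and 58.3 for wild type hearts. F/F replicates 2 and 3 thus lay inside the wild type range of Lmna, as far as reads of a whole heart, with its other cell types, can show the deletion. Cgas, which encodes a sensor of cytosolic DNA, rose to 2.06 ± 0.644 CPM in F/F, against 0.648 ± 0.220 in wild type (exact permutation p = 0.00253). More genes had at least 1 count in F/F than in wild type libraries, 21860 ± 1217 against 19770 ± 555 (exact permutation p = 0.00505). This permutation took no account of pool or total counts, and the part of either was not tested. F/F replicates 3 to 5, of pool KIUC035, had 23069, 22431 and 22656 genes at 25516122, 21918152 and 25650922 total counts. F/F replicates 1 and 2 had 20297 and 20830 genes at 17080195 and 15955989 counts. Wild type replicate 7, the deepest of its group, had 20582 genes at 22070612 counts. Mitochondrially encoded mRNAs took 14.8 ± 8.26% and 17.3 ± 4.13% of counts (exact permutation p = 0.513).

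F/F replicate 1, a male heart of pool KIUC033, stood apart from the other F/F hearts. It had the lowest Lmna of all 12 libraries and the highest share of mitochondrially encoded mRNAs, 28.9%. On the first principal component, which took 52.6% of the variance, it was at -18.0, beside wild type libraries at -50.1 to -23.5, while F/F replicates 2 to 5 were at 47.2 to 94.1. Results are therefore also given without it.

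F/F and wild type hearts differed at 4763 of 14038 genes tested (33.9%). Of these, 2593 rose (18.5% of the genes tested) and 2170 fell (15.5%), and without F/F replicate 1 the counts were 3389 and 2966. Without F/F replicate 3 they were 1691 and 1505. Within pool KIUC033 alone (2 F/F and 5 wild type libraries) 204 genes rose and 145 fell, and within pool KIUC035 (3 and 2 libraries) 2751 rose and 2143 fell. Among genes with a mean of at least 5 CPM whose groups did not overlap (over all genes tested, 6.88% had every F/F library above every wild type library and 5.96% every one below), large rises were those of Sprr1a, a cornified envelope gene induced in strained cardiomyocytes (8.29 ± 1.00), of Spp1, the secreted phosphoprotein osteopontin (6.95 ± 0.86), and of Timp1, an inhibitor of matrix proteases (5.71 ± 0.70; edgeR adjusted p = 0.000654 each). Sprr1a was at 1.03, 27.2, 148, 54.7 and 30.9 CPM in F/F replicates 1 to 5, while wild type libraries held 0 to 0.376 CPM (median 0). All F/F libraries were above all wild type libraries, and F/F replicate 1 was the lowest of the F/F hearts.

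Falls were smaller than rises. Esr1 fell the most (-1.93 ± 0.39, edgeR adjusted p = 0.0035), but the transgene contains parts of mouse Esr1, so gene and transgene cannot be told apart. Apln, which encodes the peptide hormone apelin, fell by 1.72 ± 0.28 on the log2 scale to 3.03 ± 1.26 CPM in F/F, against 10.1 ± 2.98 in wild type (edgeR adjusted p = 0.00139). Cacna1s, a calcium channel subunit best known from skeletal muscle, fell by 1.62 ± 0.27, Myh7b, a slow myosin heavy chain, by 1.45 ± 0.37, and Gnb3, a G protein subunit, by 1.52 ± 0.40 (edgeR adjusted p = 0.00146, 0.0104 and 0.0117). Ttll1, a tubulin glutamylase, fell by 1.42 ± 0.29, Cryba4, a crystallin gene, by 1.33 ± 0.19, Tmem25 by 1.40 ± 0.28 and Pkd2l2 by 1.32 ± 0.24 (edgeR adjusted p = 0.00349, 0.000853, 0.00311 and 0.00197). Without wild type replicate 7 the adjusted p was 0.0698 for Gnb3 and 0.0593 for Myh7b. A test against a fold change of 1.5 called 709 genes higher and 106 lower.

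The direction counts depend on how libraries are scaled. With limma-trend on the deposited TPM, which are scaled to the library and not to the bulk of genes, 83.7% of the calls were higher against 54.4% with edgeR, and the median log2 fold change of all genes was 0.235 against 0.03. With each library centred on its median gene, 31.0% of the calls were higher. The counts of each gene list below stand against the shares of all genes tested, 18.5% higher and 15.5% lower, and a share near these is no result about the list. On uncentred TPM the median was 0.04 for the mitochondrial calcium uniporter list (-0.17 with edgeR), 0.07 for angiogenic and hypoxia genes (-0.20) and 0.19 for muscle ubiquitin ligases and autophagy (-0.07). On centred TPM it was -0.04 for integrins (0.07 with edgeR) and -0.07 for sterol genes (0.14). Other lists whose median turned its sign are named where they are described. Lists not described below turned as well. On uncentred TPM the median was 0.07 for Wnt and Notch signalling (-0.16 with edgeR) and 0.14 for intercalated disc and costamere genes (-0.12). The proteasome, circadian clock, epicardial, lymphatic, Schwann cell and conduction system lists also turned on 1 of the TPM scales.

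**Figure D1:**
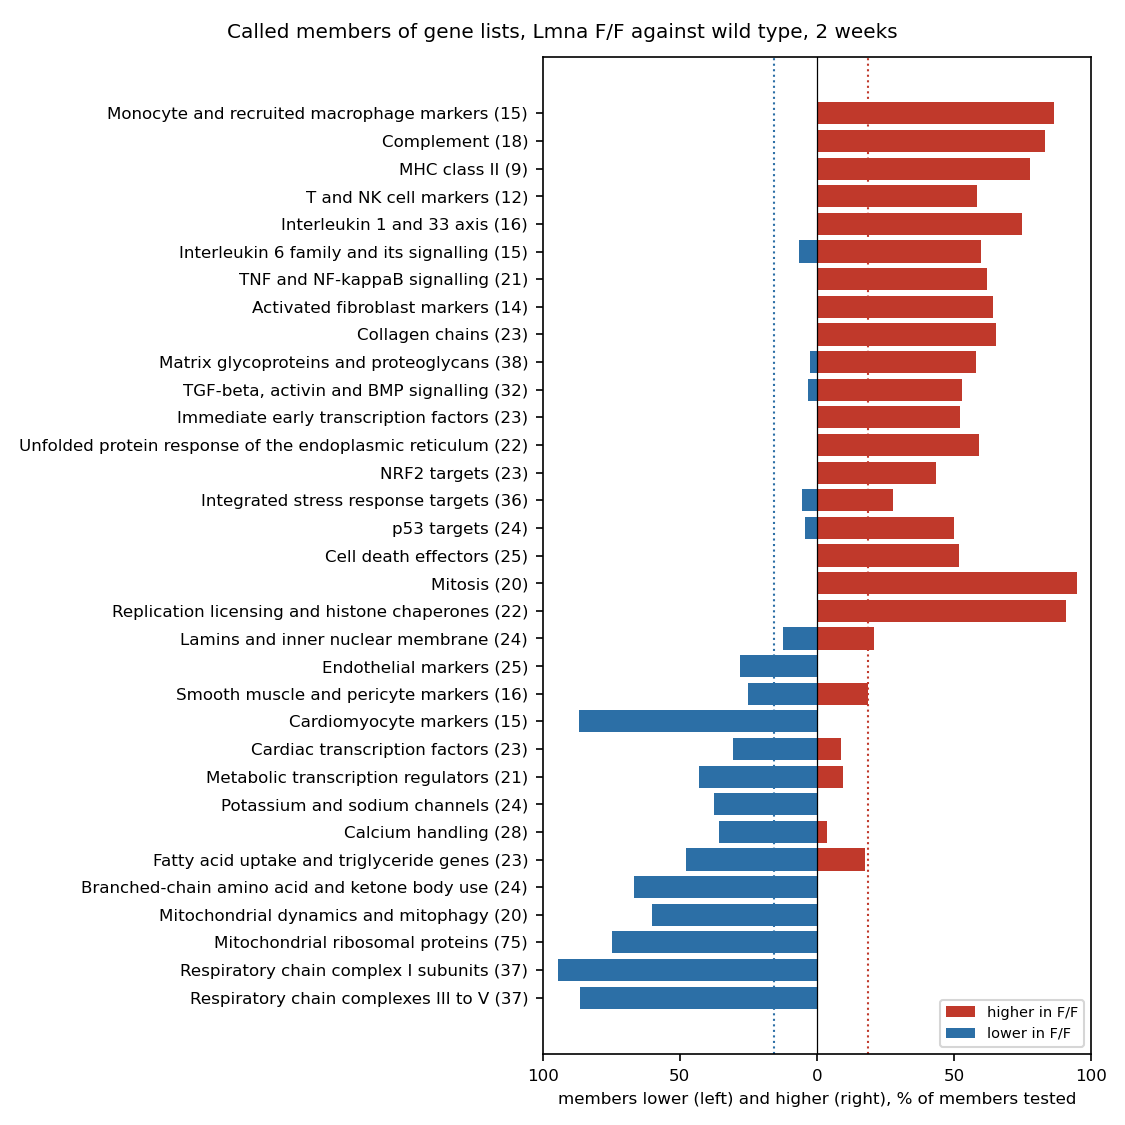
Share of the tested members (number in brackets) of selected gene lists called lower (blue, left) and higher (red, right) in F/F than in wild type hearts, in percent. Dotted lines mark the shares over all genes tested, 15.5% lower and 18.5% higher. The immune, matrix, stress and cell division lists shown extend to the right and the cardiomyocyte and mitochondrial lists shown to the left. Stress lists not shown are mitochondrial chaperones and proteases (0 higher and 7 lower of 13), cytosolic heat shock (1 and 2 of 21) and metallothioneins and iron import (5 and 0 of 10). The medians of the endothelial, smooth muscle and cardiac transcription factor lists, below 0 here, are above 0 on uncentred TPM.

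Genes of the nuclear envelope changed little as a group, while Lmnb1, Nrm and Tmpo rose. Of 24 lamin and inner nuclear membrane genes 5 rose and 3 fell (7 and 4 without F/F replicate 1), with a median log2 fold change of 0.06, which is -0.08 on centred TPM. Lmnb1, which encodes lamin B1, was at 4.89, 9.03, 21.5, 11.1 and 14.6 CPM in F/F replicates 1 to 5 and at 2.45 to 4.96 CPM in wild type (median 3.50), a rise of 1.47 ± 0.26 (edgeR adjusted p = 0.00181). Only F/F replicate 1 lay inside the wild type range. Nrm, nurim of the inner nuclear membrane, rose by 1.12 ± 0.23 and Tmpo, which encodes the lamina-associated polypeptide 2 proteins, by 0.44 ± 0.10 (edgeR adjusted p = 0.00393 and 0.00556). The call of Tmpo was lost without the pool term (adjusted p = 0.0654) and within pool KIUC033 or KIUC035 alone (0.13 and 0.0576). Tmem201 (SAMP1), an inner membrane protein that links the lamina to the cytoskeleton, fell by 0.72 ± 0.12, Plpp7 (NET39), an envelope protein of muscle, by 0.57 ± 0.11, and Sun1, the inner part of the bridge across the envelope, by 0.39 ± 0.11 (edgeR adjusted p = 0.00145, 0.00229 and 0.0212). The call of Sun1 was lost without F/F replicate 2 or 3 or wild type replicate 6 or 7 (adjusted p = 0.0618, 0.0641, 0.0574 and 0.0838). Emd (emerin) and Lbr (lamin B receptor), which both bind lamins, had log2 fold changes of -0.22 ± 0.14 and 0.24 ± 0.11 (edgeR adjusted p = 0.239 and 0.118), and that of Emd was 0.06 on uncentred TPM. Chmp1b, of the ESCRT-III machinery that reseals ruptured envelopes, rose by 0.53 ± 0.11 (edgeR adjusted p = 0.00313). Of 17 genes of that machinery and of envelope resealing 3 rose and 2 fell, shares near those of all genes (3 and 1 without F/F replicate 1). The number that rose was 1 without wild type replicate 6. At most 1 fell without any single library but wild type replicate 2. Their median was -0.01, and 0.25 on uncentred TPM.

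Cardiomyocyte genes were lower in the F/F hearts. Of 15 markers of cardiomyocytes 13 fell and 0 rose (15 and 0 without F/F replicate 1), with a median of -0.64, which was -0.44 within pool KIUC033 and -0.80 within pool KIUC035. Their summed level was 114000, 99029, 67270, 94404 and 99573 CPM in F/F replicates 1 to 5 and 138820 to 168230 CPM in wild type, so that all F/F hearts, replicate 1 included, were below all wild type hearts. On uncentred TPM 8 of the 15 fell, with a median of -0.37. CPM are relative levels. In bulk tissue, fewer cardiomyocytes, less RNA per cardiomyocyte and more RNA of other cells therefore cannot be told apart. The part of each in the lower levels of the gene lists below was not tested. Ckm, the muscle creatine kinase, fell by 1.01 ± 0.16, Myl2, the ventricular regulatory light chain, by 0.89 ± 0.15, Myh6, the adult myosin heavy chain, by 0.85 ± 0.22, and Actc1, cardiac actin, by 0.64 ± 0.14 (edgeR adjusted p = 0.00114, 0.00156, 0.0126 and 0.00503).

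Fetal and stress genes of cardiomyocytes did not move together. Of 24 such genes 9 rose and 1 fell (11 and 1 without F/F replicate 1). The count that rose was 4 without F/F replicate 2, 5 without F/F replicate 3 and 4 without wild type replicate 7, where 2 fell. Ankrd1, a stretch-responsive partner of titin, was at 2069, 6296, 6611, 5404 and 6032 CPM in F/F replicates 1 to 5 and at 796 to 2558 CPM in wild type (median 1545), a rise of 1.51 ± 0.32 (edgeR adjusted p = 0.00419). F/F replicate 1 lay inside the wild type range and the other F/F hearts above it. Ankrd2, its relative of slow skeletal muscle, rose by 2.20 ± 0.44, Fhl1, a LIM protein of the titin N2B region, by 1.58 ± 0.30, Runx1, a transcription factor re-expressed in injured heart muscle, by 2.13 ± 0.36, and Nmrk2, a nicotinamide riboside kinase, by 3.26 ± 0.89 (edgeR adjusted p = 0.00301, 0.00235, 0.00163 and 0.0149). Nppa, which encodes atrial natriuretic peptide, was at 341, 2144, 2742, 3327 and 2084 CPM in F/F replicates 1 to 5, against 349 to 933 CPM in wild type (median 491), a rise of 1.38 ± 0.39 (edgeR adjusted p = 0.0177). The calls of Nppa and Nmrk2 were lost without F/F replicate 2 (adjusted p = 0.097 and 0.0754), wild type replicate 6 (0.0601 and 0.0557) or wild type replicate 7 (0.107 and 0.0612), and that of Nppa also without F/F replicate 3 (0.105).

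The classical markers Nppb, Myh7 and Acta1 were not called. Nppb, brain natriuretic peptide, averaged 1222 ± 637 CPM in F/F and 429 ± 307 in wild type (log2 fold change 1.00 ± 0.49, edgeR adjusted p = 0.136). Myh7, the fetal myosin heavy chain of the mouse ventricle, ran from 264 to 806 CPM in F/F and from 91.9 to 1061 in wild type (0.61 ± 0.59, edgeR adjusted p = 0.449; -0.17 within pool KIUC035). Acta1, skeletal actin, averaged 467 ± 240 CPM in F/F and 403 ± 286 in wild type (-0.40 ± 0.36, edgeR adjusted p = 0.402; 0.05 on uncentred TPM). The hearts differed in atrial transcripts within both groups: Myl7, an atrial light chain, ran from 2.54 to 177 CPM in F/F and from 1.55 to 236 in wild type, and Sln (sarcolipin) from 0.1 to 31.7 CPM in F/F and from 0 to 56.4 in wild type. Their part in the values of Nppa was not tested.

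Of 23 cardiac transcription factor genes 7 fell and 2 rose (15 and 1 without F/F replicate 1), with a median of -0.20 that was 0.07 on uncentred TPM and -0.27 on centred TPM. The number that fell was 4 without F/F replicate 2, F/F replicate 3 or wild type replicate 5 and 3 without wild type replicate 6, where 0 rose; 1 rose without each other library but F/F replicate 4 and wild type replicates 2 and 3. Hopx, a cofactor of serum response factor, was at 411, 296, 157, 280 and 259 CPM in F/F replicates 1 to 5 and at 563 to 746 in wild type (median 609), a fall of 1.10 ± 0.17 (edgeR adjusted p = 0.00109). No F/F heart reached the wild type range. Irx4, a ventricular homeobox gene, fell by 0.66 ± 0.14, Gata4 by 0.47 ± 0.14 and Nkx2-5 by 0.45 ± 0.13 (edgeR adjusted p = 0.00467, 0.0214 and 0.0159). Leaving out wild type replicate 6 lost the calls of Gata4 and Nkx2-5 (adjusted p = 0.0649 and 0.0532), and that of Gata4 was also lost without F/F replicate 2 or 3 or wild type replicate 5 (0.0588, 0.0689 and 0.0642).

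Of 24 potassium and sodium channel genes 9 fell and 0 rose (17 and 1 without F/F replicate 1, 1 rising without wild type replicate 7; median -0.54). Kcnj11, a pore of ATP-sensitive potassium channels, fell by 1.16 ± 0.18, and Abcc8, a regulatory subunit of such channels, by 1.01 ± 0.18 (edgeR adjusted p = 0.00107 and 0.00176). Of 28 calcium handling genes 10 fell and 1 rose (16 and 1 without F/F replicate 1, 6 falling without F/F replicate 2; median -0.36). Jph2, junctophilin of the dyad between T-tubule and sarcoplasmic reticulum, was at 187, 176, 156, 155 and 216 CPM in F/F replicates 1 to 5 and at 279 to 427 in wild type (median 335), a fall of 0.98 ± 0.13 (edgeR adjusted p = 0.000738). Every F/F heart was below every wild type heart. Atp2a2, the calcium pump SERCA2, was at 5891 CPM in F/F replicate 1, close to the wild type median of 5917, and at 2815 to 3584 CPM in the other F/F hearts (-0.58 ± 0.16, edgeR adjusted p = 0.0171). Its call was lost without F/F replicate 2 or wild type replicate 7 (adjusted p = 0.0541 and 0.0766). Of 27 genes of adrenergic, angiotensin and endothelin signalling 7 fell and 3 rose (4 falling without F/F replicate 2 or wild type replicate 7 and 1 rising without F/F replicate 3), with a median of -0.20 that was 0.02 on uncentred TPM. Adcy6, the main cardiac adenylyl cyclase with Adcy5, fell by 0.74 ± 0.14 and Grk5, a kinase that desensitises adrenergic receptors, rose by 0.77 ± 0.15 (edgeR adjusted p = 0.00228 and 0.00287), while Adrb1, the main beta-adrenergic receptor of heart muscle, had -0.37 ± 0.18 (edgeR adjusted p = 0.122).

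**Figure D2:**
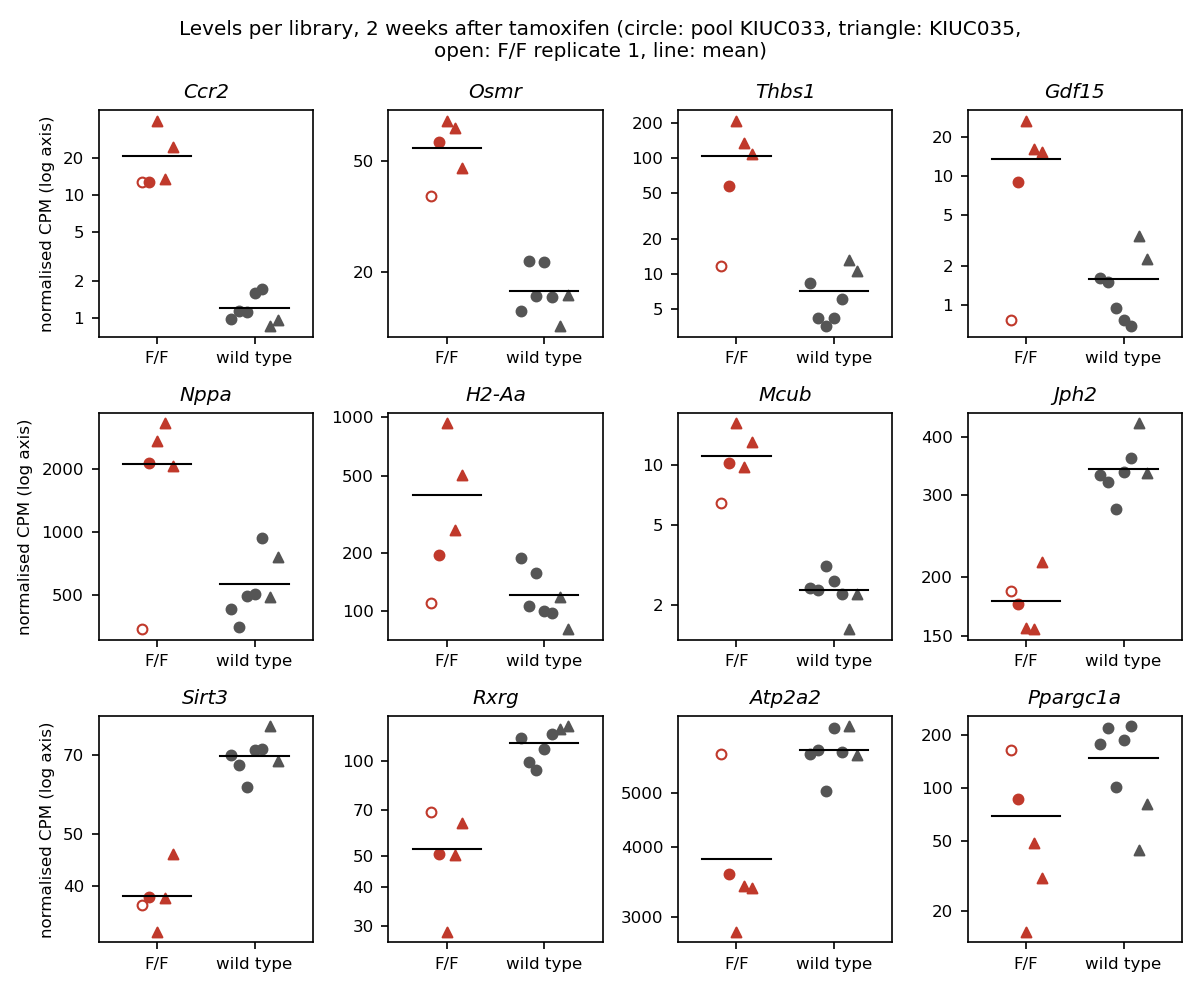
Normalised CPM (log axis) of 12 genes in the 5 F/F libraries (red, left) and the 7 wild type libraries (grey, right) of 2 weeks, with the group mean as a line. Circles are pool KIUC033, triangles pool KIUC035 and the open circle F/F replicate 1, which lies with the other F/F hearts for Ccr2, Osmr, Mcub, Jph2, Sirt3 and Rxrg inside the wild type range for Thbs1, Gdf15, H2-Aa, Atp2a2 and Ppargc1a, and just below it for Nppa.

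Nuclear genes of the mitochondrion fell broadly. The cardiomyocyte markers had a median of -0.64. How far a lower share of cardiomyocyte RNA lowered these genes, and those of energy metabolism below, was not tested. Of 37 complex I subunits 35 fell and 0 rose (37 and 0 without F/F replicate 1), with a median of -0.60 that was -0.54 within pool KIUC033 and -0.67 within pool KIUC035. Of 37 subunits of complexes III to V 32 fell (median -0.57), and of 75 mitochondrial ribosomal proteins 56 (median -0.46). On uncentred TPM 22 complex I, 22 complex III to V and 17 mitochondrial ribosomal genes fell, with medians of -0.33, -0.29 and -0.17. Ndufs8, an iron-sulfur subunit of complex I, fell by 0.72 ± 0.10, Cox7a1, the muscle form of a cytochrome oxidase subunit, by 0.76 ± 0.10, and Mrpl14 and Mrpl9 of the large mitochondrial ribosomal subunit by 0.89 ± 0.12 and 0.71 ± 0.09 (edgeR adjusted p = 0.000812, 0.000738, 0.000768 and 0.000738). Mrpl9 was at 79.7, 74.6, 66.9, 84.7 and 90.5 CPM in F/F replicates 1 to 5, below the 117 to 134 CPM of wild type (median 125), a narrow range in both groups. The 7 mitochondrially encoded mRNAs tested had a median of -0.14, with 0.25 within pool KIUC033 and -0.82 within pool KIUC035, and 4 of them fell without F/F replicate 1. Of 20 genes of mitochondrial dynamics and mitophagy 12 fell, among them Mtfp1, a fission protein (-1.16 ± 0.21), Pink1, the kinase that marks damaged mitochondria (-0.67 ± 0.14), and Mfn2, a fusion protein (-0.55 ± 0.12; edgeR adjusted p = 0.00189, 0.00366 and 0.00463).

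Nuclear receptors of energy metabolism fell as well. Of 21 metabolic transcription regulators 9 fell and 2 rose (12 and 1 without F/F replicate 1; 1 rising also without F/F replicate 2, 3 or 4 or wild type replicate 4, 5 or 6; median -0.38). Esrra, the estrogen-related receptor alpha, was at 76.9, 81.4, 79.1, 71.4 and 94.3 CPM in F/F replicates 1 to 5 and at 118 to 155 in wild type (median 127), a fall of 0.71 ± 0.10 (edgeR adjusted p = 0.000889). Rxrg, a retinoid X receptor, fell by 1.17 ± 0.19 and Ppara, the receptor of fatty acid oxidation, by 1.01 ± 0.23 (edgeR adjusted p = 0.00141 and 0.00582). Groups did not overlap for any of these receptors. The coactivator Ppargc1a (PGC-1 alpha) did not reach the threshold: it was at 166, 86.7, 15.2, 49.0 and 30.9 CPM in F/F replicates 1 to 5 and at 44.5 to 225 in wild type (median 179; -0.80 ± 0.29, edgeR adjusted p = 0.0513). Its relative Pprc1, a coactivator induced by serum, rose by 0.89 ± 0.21 (edgeR adjusted p = 0.00703).

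Genes of fuel use were mostly lower, with single genes that ran the other way. Of 24 genes of branched-chain amino acid and ketone body use 16 fell and 0 rose (23 and 0 without F/F replicate 1, 9 without F/F replicate 2 or wild type replicate 7; median -0.53). Bckdha, a subunit of the branched-chain ketoacid dehydrogenase, fell by 0.87 ± 0.13 to 239 ± 31.9 CPM in F/F, against 445 ± 51.3 in wild type (edgeR adjusted p = 0.000985). Of 23 genes of fatty acid uptake and triglycerides 11 fell and 4 rose (15 and 3 without F/F replicate 1, 7 falling without F/F replicate 2 or wild type replicate 5, 6 or 7, and 2 rising without wild type replicate 7). Dgat2, which makes triglyceride, fell by 1.08 ± 0.16, Cpt1b, the muscle carnitine palmitoyltransferase, by 1.00 ± 0.21, and Plin5, a lipid droplet coat, by 0.84 ± 0.13, while Ucp2, a mitochondrial carrier, rose by 0.98 ± 0.21 (edgeR adjusted p = 0.000968, 0.00417, 0.00117 and 0.00432). Of 16 genes of phosphagen and adenine nucleotide shuttles 8 fell and 2 rose (5 falling without F/F replicate 2 or 3 or wild type replicate 5 or 6; 1 rising without F/F replicate 1 or 3 or wild type replicate 6 or 7). Ak1 (adenylate kinase) fell by 0.98 ± 0.14 and Ckmt2 (mitochondrial creatine kinase) by 0.81 ± 0.12, whereas Gatm, which makes the precursor of creatine, was at 6.82, 18.7, 21.4, 12.8 and 13.3 CPM in F/F replicates 1 to 5, all above the 2.07 to 3.46 CPM of wild type (median 2.86; 2.29 ± 0.27; edgeR adjusted p = 0.000971, 0.00104 and 0.000603).

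Among 21 genes of NAD metabolism 4 fell and 6 rose (5 and 8 without F/F replicate 1); the share that fell is close to the 15.5% of all genes. The mitochondrial deacylases Sirt3 and Sirt5 fell by 0.92 ± 0.10 and 0.98 ± 0.15 and Nmnat3, a mitochondrial NAD synthase in mice, by 0.88 ± 0.17, while Parp14, an interferon-inducible ADP-ribosyltransferase, rose by 0.97 ± 0.18 (edgeR adjusted p = 0.000603, 0.00108, 0.00269 and 0.0021). Sirt3 was at 36.9, 38.2, 32.9, 38.0 and 45.9 CPM in F/F replicates 1 to 5, below the 61.1 to 79.3 CPM of wild type (median 70.1). Of 9 genes of the mitochondrial calcium uniporter, 1 rose and 2 fell (2 and 4 without F/F replicate 1; 1 fell without each of F/F replicates 2 to 5 and wild type replicates 2, 5, 6 and 7). The gene that rose was Mcub, a paralog of the pore that lowers uniporter current, at 6.50, 10.3, 16.3, 9.85 and 13.2 CPM in F/F replicates 1 to 5 and 1.51 to 3.14 CPM in wild type (median 2.36; 2.22 ± 0.26, edgeR adjusted p = 0.000603). Every F/F heart was above the wild type range. The pore gene Mcu had -0.30 ± 0.16 (edgeR adjusted p = 0.159; 0.01 within pool KIUC033), and Smdt1, the scaffold EMRE, fell by 0.47 ± 0.10 (edgeR adjusted p = 0.00332).

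Stress programmes rose in part of their genes. Among 36 targets of the integrated stress response, in which phosphorylated eIF2 lets ATF4 be translated, 10 rose and 2 fell (18 and 3 without F/F replicate 1, and 5, 5 and 6 rose without F/F replicate 2, F/F replicate 3 and wild type replicate 7; 1 fell without F/F replicate 2, 3, 4 or 5 or wild type replicate 3, 6 or 7). The list median was 0.21, against 0.03 over all genes tested. Psat1, of serine synthesis, was at 11.7, 34.9, 39.8, 35.6 and 27.7 CPM in F/F replicates 1 to 5 and at 3.33 to 4.84 CPM in wild type (median 4.59), a rise of 2.62 ± 0.27 (edgeR adjusted p = 0.000457). Groups did not overlap, and replicate 1 was the lowest F/F heart. Gdf15, a secreted stress hormone, rose by 2.52 ± 0.51, but in F/F replicate 1, at 0.772 CPM, it lay inside the wild type range of 0.683 to 3.44 CPM (edgeR adjusted p = 0.00351). Mthfd2, of mitochondrial one-carbon metabolism, rose by 1.34 ± 0.30, Nupr1, a stress-induced chromatin protein, by 1.11 ± 0.20, and Asns, asparagine synthetase, by 0.71 ± 0.19 (edgeR adjusted p = 0.00585, 0.00204 and 0.0154). Pycr1, of proline synthesis, rose by 1.74 ± 0.41 (edgeR adjusted p = 0.00682); it is not among the genes that the naming rule gives and was picked with its values known, for its promoter. The transcription factor genes Atf4, Ddit3 and Atf3 had log2 fold changes of 0.20 ± 0.13, 0.17 ± 0.15 and 1.36 ± 0.67 (edgeR adjusted p = 0.236, 0.386 and 0.134), and within pool KIUC033 Atf4 and Ddit3 were at 0.00 and -0.23. Stc2, a secreted glycoprotein, fell by 1.03 ± 0.25 (edgeR adjusted p = 0.00883). The calls of Asns and Pycr1 were lost without F/F replicate 2 (adjusted p = 0.0768 and 0.0554) or F/F replicate 3 (0.053 and 0.0596), and that of Asns also without wild type replicate 7 (0.0824).

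The letters TGATGNAA, in which ATF4 dimers bind, stood on either strand in the 250 bases before the start of 7 of 29 promoters of this list (24.1%), against 1.95% of the 10689 promoters matched by symbol among 14036 symbols tested (RefSeq, GRCm38.p6). In the promoters of all genes that rose the share was 2.65%, and of those that fell 2.42%. The list holds targets of the integrated stress response, so its share describes the list and is no result about the hearts. No match, as for Psat1, Gdf15 and Mthfd2, says only that the letters are not in this window. The matched promoters of genes that rose are shown 5′ to 3′ in the direction of transcription, with the motif in capitals: Nupr1 (chr7:126625471-126625720, minus strand), Pycr1 (chr11:120643749-120643998, minus strand) and Asns (chr6:7693210-7693459, minus strand). The motif begins 110, 103 and 23 bases before the start of transcription in the same order.
Nupr1: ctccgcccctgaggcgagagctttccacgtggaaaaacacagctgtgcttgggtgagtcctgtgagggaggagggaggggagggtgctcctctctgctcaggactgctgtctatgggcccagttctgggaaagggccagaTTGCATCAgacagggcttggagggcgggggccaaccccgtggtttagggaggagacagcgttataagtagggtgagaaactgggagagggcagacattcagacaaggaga
Pycr1: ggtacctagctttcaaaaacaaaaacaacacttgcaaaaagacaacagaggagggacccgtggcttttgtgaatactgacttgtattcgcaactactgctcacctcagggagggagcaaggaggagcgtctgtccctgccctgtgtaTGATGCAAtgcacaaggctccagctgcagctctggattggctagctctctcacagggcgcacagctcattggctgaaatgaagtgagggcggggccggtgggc
Asns: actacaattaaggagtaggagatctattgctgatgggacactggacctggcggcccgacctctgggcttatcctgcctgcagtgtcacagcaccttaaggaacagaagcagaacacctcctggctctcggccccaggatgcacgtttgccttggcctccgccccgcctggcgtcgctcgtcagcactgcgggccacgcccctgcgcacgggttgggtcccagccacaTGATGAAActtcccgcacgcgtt

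Other stress pathways held more genes that rose than fell. Of 22 genes of the unfolded protein response of the endoplasmic reticulum 13 rose and 0 fell (16 and 1 without F/F replicate 1; 7 rising without F/F replicate 2 and 8 without F/F replicate 3 or wild type replicate 7; 1 falling without wild type replicate 5). Edem1, which extracts misfolded glycoproteins, rose by 1.48 ± 0.18 and Pdia3, a disulfide isomerase, by 0.78 ± 0.12, while Hspa5, the chaperone BiP, had 0.25 ± 0.13 (edgeR adjusted p = 0.000654, 0.00109 and 0.156). Of 23 NRF2 targets 10 rose and 0 fell (14 and 0 without F/F replicate 1, 6 rising without F/F replicate 2 or 3 or wild type replicate 6 or 7). Hmox1, heme oxygenase 1, was at 56.3, 209, 372, 193 and 202 CPM in F/F replicates 1 to 5 and at 15.9 to 34.7 in wild type (median 22.7), a rise of 3.08 ± 0.41 (edgeR adjusted p = 0.000738). Gclm, of glutathione synthesis, rose by 1.06 ± 0.13 and Txnrd1, thioredoxin reductase, by 1.00 ± 0.19 (edgeR adjusted p = 0.000654 and 0.00256). Nqo1, a standard NRF2 target, was at 95.7 ± 7.71 CPM in F/F and 93.5 ± 11.7 in wild type (0.04 ± 0.11, edgeR adjusted p = 0.819; -0.02 on centred TPM and -0.01 without wild type replicate 5). Of 10 metallothionein and iron genes 5 rose, including the metallothioneins Mt2 (2.85 ± 0.51) and Mt1 (0.95 ± 0.23) and Lcn2, lipocalin 2, which binds iron-loaded siderophores (3.03 ± 0.44; edgeR adjusted p = 0.00188, 0.00751 and 0.000968); the count was 3 without wild type replicate 7. Against this direction, 7 of 13 mitochondrial chaperones and proteases fell and 0 rose (11 and 0 without F/F replicate 1), with Clpp at -0.59 ± 0.10 and Lonp1 at -0.34 ± 0.09 (edgeR adjusted p = 0.00163 and 0.0111). On uncentred TPM 1 of the 13 fell, and the call of Lonp1 was lost there (limma adjusted p = 0.656), without the pool term (0.0751) and within pool KIUC033 or KIUC035 alone (0.143 and 0.101).

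Targets of p53 and effectors of cell death also held more genes that rose than fell. Of 24 p53 targets 12 rose and 1 fell (16 and 3 without F/F replicate 1, 0 falling without F/F replicate 2 or wild type replicate 7; median 0.53). Eda2r, a death receptor of the TNF family, was at 5.34, 7.15, 15.5, 9.85 and 8.65 CPM in F/F replicates 1 to 5 and at 1.56 to 2.69 in wild type (median 2.37), a rise of 1.99 ± 0.25 (edgeR adjusted p = 0.000654). Btg2, an antiproliferative gene, rose by 1.57 ± 0.23, Cdkn1a, the kinase inhibitor p21, by 1.26 ± 0.23 and Mdm2, which degrades p53, by 0.47 ± 0.10 (edgeR adjusted p = 0.000968, 0.00229 and 0.00366). Of 25 cell death effectors 13 rose and 0 fell (18 and 1 without F/F replicate 1; median 0.86, with 0.45 within pool KIUC033 and 1.10 within pool KIUC035). The necroptosis kinases Ripk1 and Ripk3 rose by 0.89 ± 0.12 and 1.35 ± 0.25, their pore-forming target Mlkl by 1.08 ± 0.22 and the initiator caspase Casp8 by 0.92 ± 0.18 (edgeR adjusted p = 0.000842, 0.00237, 0.00389 and 0.00324). Mlkl was at 4.76, 10.2, 9.42, 9.28 and 8.05 CPM in F/F replicates 1 to 5, above the 2.62 to 4.73 CPM of wild type (median 3.71), with replicate 1 just above that range. Immune cells also express these genes, and their part in these values was not tested.

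**Figure D3:**
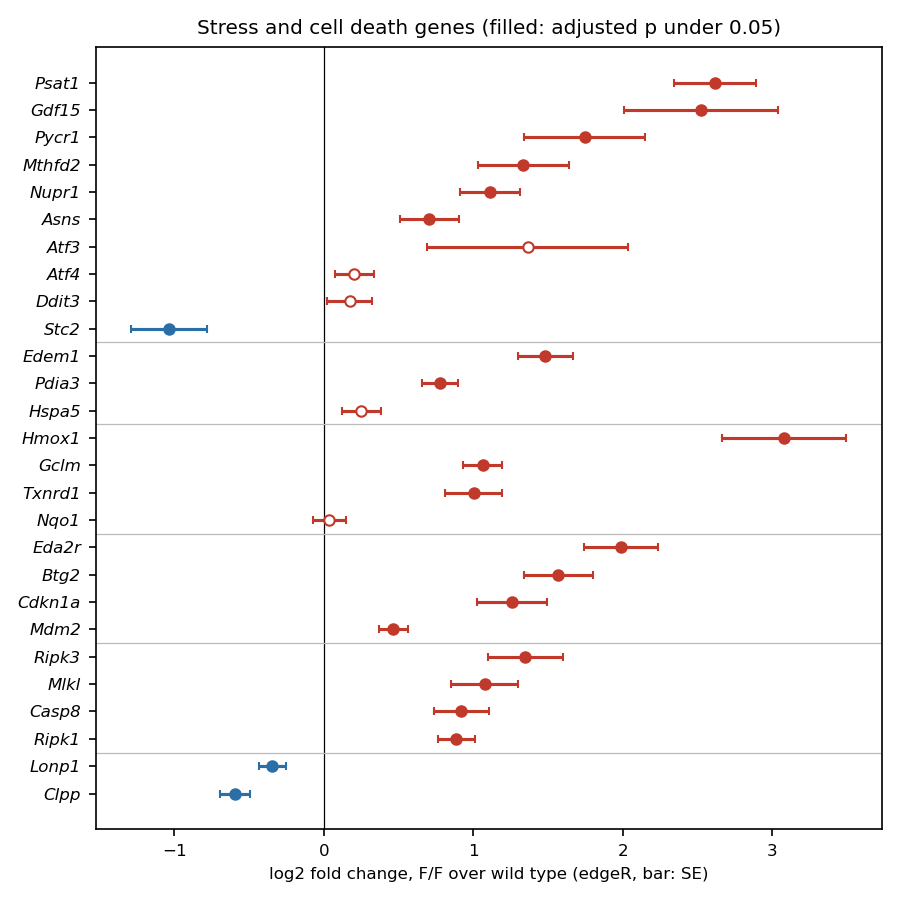
Log2 fold change of F/F over wild type hearts (x axis; bars are SE, edgeR) for stress and cell death genes, from top to bottom targets of the integrated stress response, the unfolded protein response, NRF2, p53, cell death effectors and mitochondrial proteases. Filled points are called at an adjusted p under 0.05; Psat1 rose by 2.62, while Atf3, Atf4, Ddit3, Hspa5 and Nqo1 are open.

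Immediate early and cytokine genes were higher. Of 23 immediate early transcription factor genes 12 rose and 0 fell (18 and 0 without F/F replicate 1; median 0.73). Fos, a subunit of AP-1, rose by 2.54 ± 0.33, Egr3 and Egr1 by 2.46 ± 0.32 and 1.83 ± 0.33, and Myc by 2.18 ± 0.38 (edgeR adjusted p = 0.000719, 0.000719, 0.0021 and 0.0017). Egr1 was at 4.44 CPM in F/F replicate 1, inside the 2.79 to 5.63 CPM of wild type (median 4.36), and at 19.8, 27.2, 30.4 and 26.9 CPM in F/F replicates 2 to 5. Of 13 feedback genes of ERK signalling 5 rose (11 without F/F replicate 1, and 3 without F/F replicate 2, F/F replicate 3 or wild type replicate 7). Spred1, an inhibitor of the pathway, rose by 0.92 ± 0.15, while Dusp6, the phosphatase of ERK, had 0.48 ± 0.18 (edgeR adjusted p = 0.00138 and 0.0615). Hbegf, a growth factor that binds the EGF receptor, rose by 1.33 ± 0.24 (edgeR adjusted p = 0.00196).

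Of 15 interleukin 6 family genes tested 9 rose and 1 fell (10 and 2 without F/F replicate 1, 2 falling without wild type replicate 2). Osmr, which encodes the receptor of oncostatin M, was at 37.4, 58.5, 69.9, 65.6 and 47.3 CPM in F/F replicates 1 to 5 and at 12.8 to 21.9 in wild type (median 16.4), a rise of 1.70 ± 0.20 (edgeR adjusted p = 0.000654). Socs3, the feedback inhibitor of this pathway, rose by 2.98 ± 0.49, Il6st, the shared receptor gp130, had 0.23 ± 0.09, and Il11ra1, the receptor of interleukin 11, fell by 0.54 ± 0.10 (edgeR adjusted p = 0.00146, 0.0733 and 0.0025). Of 16 genes of the interleukin 1 and 33 axis 12 rose and 0 fell (12 and 1 without F/F replicate 1; median 1.04). Il33, an alarmin released by damaged cells, rose by 2.74 ± 0.49 to 35.9 ± 28.2 CPM in F/F, against 5.53 ± 1.95 in wild type, and Il1b by 2.52 ± 0.50, while Il1rl1, the receptor of interleukin 33, had 0.76 ± 0.34 (edgeR adjusted p = 0.002, 0.00317 and 0.0992). Of 21 genes of TNF and NF-kappaB signalling 13 rose and 0 fell (15 and 0 without F/F replicate 1, 8 rising without F/F replicate 2 or 3, 6 without wild type replicate 7). Nfkbiz, a nuclear inhibitor-like coactivator, rose by 1.74 ± 0.35, while the standard feedback inhibitor Nfkbia had 0.09 ± 0.14 (edgeR adjusted p = 0.00307 and 0.645).

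Signals that act on matrix-producing cells followed. Of 32 genes of TGF-beta, activin and BMP signalling 17 rose and 1 fell (19 and 2 without F/F replicate 1; median 0.56). Tgfbr1, the type I receptor, was at 22.1, 21.3, 25.2, 20.3 and 20.8 CPM in F/F replicates 1 to 5 and at 8.94 to 15 in wild type (median 10.6), a rise of 1.06 ± 0.14 (edgeR adjusted p = 0.000711). F/F replicate 1 was as high as the other F/F hearts. The ligand Tgfb2 rose by 1.20 ± 0.22, while Tgfb1 had 0.60 ± 0.23 and the single gene that fell was Bmp7, a ligand that opposes TGF-beta in kidney (-1.02 ± 0.23; edgeR adjusted p = 0.00193, 0.0597 and 0.00598). Of 23 targets and regulators of YAP and TEAD 6 rose and 0 fell (8 and 0 without F/F replicate 1), with a median of 0.13 that was 0.00 on centred TPM. Ccn2, connective tissue growth factor, rose by 1.27 ± 0.27 (edgeR adjusted p = 0.00389).

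Markers of monocytes and recruited macrophages rose more than those of resident macrophages, as described without a test of the difference. Of 15 monocyte markers tested, of 18 in the list, 13 rose and 0 fell (14 and 0 without F/F replicate 1), with a median of 3.53 that was 2.44 within pool KIUC033 and 4.57 within pool KIUC035. Of 10 resident macrophage markers 7 rose and 0 fell (median 0.98). Ccr2, the chemokine receptor of monocytes, was at 12.7, 12.9, 40.6, 13.7 and 24.9 CPM in F/F replicates 1 to 5 and at 0.860 to 1.73 in wild type (median 1.12), a rise of 3.99 ± 0.34 (edgeR adjusted p = 0.000176). F/F replicate 1, close to wild type on the first principal component, was level with replicates 2 and 4 here. Gpnmb and Trem2, of lipid-handling macrophages, rose by 3.33 ± 0.46 and 2.78 ± 0.47, and Ly6c2, of inflammatory monocytes, by 3.49 ± 0.55, although Ly6c2 can share reads with its near copy Ly6c1 (edgeR adjusted p = 0.000812, 0.00154 and 0.00117). Of the resident markers, Mrc1, the mannose receptor, rose by 1.73 ± 0.22 and Lyve1 by 0.82 ± 0.19, and Timd4 had 0.52 ± 0.32 (edgeR adjusted p = 0.000692, 0.00562 and 0.227).

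Markers of other leukocytes were at lower summed levels. In F/F hearts neutrophil markers summed to 32.7 to 105 CPM and T and NK cell markers to 9.26 to 27.7 CPM. Monocyte markers summed to 194 to 1414 CPM. Such sums, over lists of unlike size, do not measure the transcripts of a cell type. Of 6 dendritic cell markers tested 2 rose, of 4 B cell markers 0 and of 5 mast cell markers 0 (4, 2 and 0 without F/F replicate 1). Of 15 neutrophil markers 9 were under the filter on low counts, and of the 6 tested 3 rose. The defining genes S100a8 and S100a9 were at 2.10 ± 1.22 and 4.46 ± 3.85 CPM in F/F and at 1.21 ± 0.867 and 2.63 ± 1.64 in wild type, with log2 fold changes of 0.95 ± 0.52 and 0.68 ± 0.56 (edgeR adjusted p = 0.17 and 0.361; S100a9 had -0.05 within pool KIUC033). Of 12 T and NK cell markers tested 7 rose and 0 fell (11 and 0 without F/F replicate 1, 4 rising without F/F replicate 3 or wild type replicate 6 and 3 without wild type replicate 7). Cd3g, of the T cell receptor complex, reached 1.43 ± 0.648 CPM in F/F, against 0.359 ± 0.0878 in wild type, and Gzmb, granzyme B, 1.47 ± 1.02 against 0.229 ± 0.0996 (edgeR adjusted p = 0.00211 and 0.0016).

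Antigen presentation and complement rose with these markers. Of 9 MHC class II genes 7 rose and 0 fell (9 and 0 without F/F replicate 1, and 3 rising without any of F/F replicates 2 and 3 and wild type replicates 6 and 7). The class II transactivator Ciita rose by 1.99 ± 0.45 and H2-Aa, a class II chain, by 1.5 ± 0.46 (edgeR adjusted p = 0.00593 and 0.0258). H2-Aa was at 111, 195, 926, 262 and 504 CPM in F/F replicates 1 to 5 and at 81.1 to 188 in wild type (median 107), so that F/F replicate 1 lay inside the wild type range and replicate 2 just above it. Its call was lost without F/F replicate 2 or 3 or wild type replicate 6 or 7 (adjusted p = 0.0721, 0.118, 0.0882 and 0.145). Of 20 MHC class I and immunoproteasome genes 9 rose and 1 fell (14 and 0 without F/F replicate 1, 4 rising without wild type replicate 7; 0 falling also without F/F replicate 2, 3 or 4 or wild type replicate 2, 4, 5 or 6). Tap1, the peptide transporter, rose by 1.58 ± 0.30 and H2-D1, whose reads can be shared with other class I genes, had 0.69 ± 0.32 (edgeR adjusted p = 0.00243 and 0.111). Of 18 complement genes 15 rose and 0 fell (14 and 0 without F/F replicate 1; median 1.36). C1qa, made by macrophages, rose by 1.40 ± 0.27, C3, the central component, by 1.32 ± 0.34, and Itgam, a complement receptor chain of myeloid cells, by 2.37 ± 0.29 (edgeR adjusted p = 0.00274, 0.0111 and 0.000654). The call of C3 was lost without F/F replicate 2 or 3 (adjusted p = 0.0656 and 0.0522).

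Fibroblast and matrix genes rose unevenly. Of 14 activated fibroblast markers 9 rose and 0 fell (10 and 0 without F/F replicate 1; median 1.10). Of 13 resting fibroblast markers 5 rose and 3 fell (8 and 2 without F/F replicate 1; 1 fell without each of F/F replicates 2, 3 and 4 and wild type replicates 2 and 4). Pdgfra, a surface receptor of fibroblasts, rose by 0.71 ± 0.17, while Gsn, gelsolin, fell by 0.80 ± 0.13 (edgeR adjusted p = 0.00789 and 0.00149). The summed level of the resting markers was 3015 to 4876 CPM in F/F and 2791 to 5281 CPM in wild type, so that the groups overlapped. Of 23 collagen chain genes 15 rose and 0 fell (18 and 0 without F/F replicate 1, 7 without F/F replicate 2 and 9 without F/F replicate 3 or wild type replicate 7; median 1.10, with 0.42 within pool KIUC033 and 1.16 within pool KIUC035). Col8a1, a short-chain collagen, was at 29.0, 82.6, 110, 65.2 and 62.6 CPM in F/F replicates 1 to 5 and at 10.1 to 19.7 in wild type (median 15.7), a rise of 2.07 ± 0.29 (edgeR adjusted p = 0.000888). Col12a1 rose by 2.47 ± 0.53 and Col1a1, the main fibrillar chain, by 1.80 ± 0.41 (edgeR adjusted p = 0.0044 and 0.00581). Col1a1 was at 101 CPM in F/F replicate 1, inside the wild type range of 60.4 to 160, and at 390 to 1033 CPM in the other F/F hearts; its call was lost without F/F replicate 2 (adjusted p = 0.0626).

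Of 20 genes of collagen processing 13 rose and 0 fell (15 and 0 without F/F replicate 1, 5 without F/F replicate 2, 8 without wild type replicate 7). Loxl2, which crosslinks collagen, rose by 1.64 ± 0.29 and P4ha1, a prolyl hydroxylase subunit, had 0.27 ± 0.14 (edgeR adjusted p = 0.00181 and 0.171). Of 38 matrix glycoproteins and proteoglycans 22 rose and 1 fell (22 and 2 without F/F replicate 1). Thbs1, thrombospondin 1, an activator of latent TGF-beta, was at 11.6, 57.5, 210, 136 and 108 CPM in F/F replicates 1 to 5 and at 3.53 to 13.2 in wild type (median 6.04), a rise of 3.15 ± 0.43 (edgeR adjusted p = 0.000768). Vcan, the proteoglycan versican of provisional matrix, rose by 1.99 ± 0.26 and Has1, a hyaluronan synthase, by 3.41 ± 0.65 (edgeR adjusted p = 0.000709 and 0.00252). Of 24 metalloproteinases and inhibitors 13 rose and 2 fell (15 and 3 without F/F replicate 1; 8 rising without F/F replicate 3; 1 falling without F/F replicate 2 or 4 or wild type replicate 6 or 7). Mmp3, stromelysin 1, rose by 2.63 ± 0.43, while Mmp15, a membrane-type protease, fell by 1.00 ± 0.16 and Timp4, an inhibitor abundant in heart, by 0.93 ± 0.29 (edgeR adjusted p = 0.00141, 0.00118 and 0.0277). Timp4 was at 188 CPM in F/F replicate 1 and at 66.9, 20.4, 31.5 and 36.6 CPM in F/F replicates 2 to 5, against 91.5 to 201 CPM in wild type (median 148), and its adjusted p was 0.0698, 0.0561, 0.063 and 0.12 without F/F replicate 2, F/F replicate 4, wild type replicate 6 and wild type replicate 7. Among 25 integrin genes 5 rose and 3 fell (8 and 4 without F/F replicate 1, 3 rising without F/F replicate 3), with Itgav, the shared chain of receptors that activate TGF-beta, at 0.82 ± 0.14 and Itgb1bp2, the muscle chaperone melusin, at -0.89 ± 0.14 (edgeR adjusted p = 0.00153 and 0.00126).

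Of 25 endothelial markers 7 fell and 0 rose (12 and 1 without F/F replicate 1; 4 falling without F/F replicate 3 or wild type replicate 7), with a median of -0.26 that was 0.01 on uncentred TPM. Aplnr, the apelin receptor, fell by 1.04 ± 0.27 and Aqp1, a water channel of capillaries, by 0.63 ± 0.13 (edgeR adjusted p = 0.0121 and 0.00365). Cdh5, VE-cadherin, fell by 0.44 ± 0.14 (edgeR adjusted p = 0.0277), a call lost without F/F replicate 2 or 3 or wild type replicate 5, 6 or 7 (adjusted p = 0.078, 0.0691, 0.0646, 0.0712 and 0.0561). Pecam1 had -0.26 ± 0.10 (edgeR adjusted p = 0.0674; 0.01 on uncentred TPM). Of 21 angiogenic and hypoxia genes 7 fell and 4 rose (9 and 4 without F/F replicate 1; 4 falling without F/F replicate 2, F/F replicate 3 or wild type replicate 7). The growth factors Vegfa and Vegfb fell by 0.81 ± 0.19 and 0.72 ± 0.15, and Angptl4, an inhibitor of lipoprotein lipase, rose by 2.25 ± 0.43 (edgeR adjusted p = 0.00719, 0.00454 and 0.00258). Vegfb was at 223, 134, 140, 115 and 162 CPM in F/F replicates 1 to 5, below the 233 to 323 CPM of wild type (median 260). Of 10 endothelial adhesion and activation genes 5 rose and 3 fell (5 and 2 without F/F replicate 1, 1 falling without F/F replicate 2 or 3). Among those that rose, Selp (P-selectin) and Vcam1, which capture leukocytes from blood, rose by 3.43 ± 0.63 and 1.16 ± 0.15 (edgeR adjusted p = 0.0021 and 0.000694). Vcam1 was at 29.6, 46.5, 47.3, 45.7 and 46.3 CPM in F/F replicates 1 to 5 and at 14.0 to 23.1 in wild type (median 18.5). Of 16 smooth muscle and pericyte markers 3 rose and 4 fell (4 and 6 without F/F replicate 1), with a median of -0.15. The median was 0.11 on uncentred TPM. The number that rose was 0 without F/F replicate 2, F/F replicate 3 or wild type replicate 7, and 1 without wild type replicate 5 or 6. It was 2 for those that fell without F/F replicate 2 or wild type replicate 6. Among these markers, Myh11, smooth muscle myosin, had 0.26 ± 0.20 (edgeR adjusted p = 0.338).

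Genes of mitosis and replication rose almost as a block, but within pool KIUC033 alone 0 of either list were called. Of 20 mitosis genes 19 rose and 0 fell (19 and 0 without F/F replicate 1), with a median of 2.04 that was 1.51 within pool KIUC033 and 2.36 within pool KIUC035. Of 22 genes of replication licensing and histone chaperones 20 rose and 0 fell (21 and 0 without F/F replicate 1, 10 without F/F replicate 2, F/F replicate 3 or wild type replicate 7 and 12 without wild type replicate 6; median 1.03). Plk1 and Aurka, kinases of the spindle, rose by 2.44 ± 0.35 and 2.18 ± 0.31, and Mki67, which coats mitotic chromosomes, by 2.26 ± 0.33 (edgeR adjusted p = 0.000955, 0.000915 and 0.000968). Aurka was at 2.77, 5.96, 11.2, 5.64 and 5.88 CPM in F/F replicates 1 to 5, all above the 0.759 to 1.67 CPM of wild type (median 1.22), a low level in both groups. Mcm2, of the replicative helicase, rose by 0.68 ± 0.22 (edgeR adjusted p = 0.0304), a call lost without F/F replicate 2 or 3 or wild type replicate 6 or 7 (adjusted p = 0.118, 0.137, 0.0862 and 0.137). Of 18 cyclin and cyclin kinase inhibitor genes 8 rose and 2 fell (8 and 3 without F/F replicate 1), with a median of 0.50. The number that fell was 1 without F/F replicate 2, 3 or 5 or wild type replicate 2, 4, 6 or 7. Among them Cdkn1c, the kinase inhibitor p57, fell by 0.60 ± 0.14 (edgeR adjusted p = 0.00645). Monocytes and fibroblasts can divide in injured hearts, and which cells held these transcripts was not tested.

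The letters CCAAT, bound by NF-Y, stood on either strand in 14 of 17 promoters of the mitosis list (82.4%) and in 17 of 19 of the unfolded protein response list (89.5%), against 36.2% of all 10689 promoters. In the promoters of all genes that rose the share was 35.9% and of those that fell 39.7%. The E2F letters TTCCCGC stood in 7 of 18 promoters of the replication list (38.9%), against 6.96% of all. Among all genes that rose they stood in 6.74%, and among those that fell in 6.84%. The shares of the lists follow from the genes they hold and are no result about the hearts. The promoters of the spindle kinases are shown with CCAAT in capitals (RefSeq, GRCm38.p6): Plk1 (chr7:122159185-122159434, plus strand) and Aurka (chr2:172370571-172370820, minus strand).
Plk1: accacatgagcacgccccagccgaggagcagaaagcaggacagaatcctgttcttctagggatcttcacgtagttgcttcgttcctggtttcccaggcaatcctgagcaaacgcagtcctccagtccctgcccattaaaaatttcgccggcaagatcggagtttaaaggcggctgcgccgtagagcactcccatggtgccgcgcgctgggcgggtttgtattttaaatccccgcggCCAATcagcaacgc
Aurka: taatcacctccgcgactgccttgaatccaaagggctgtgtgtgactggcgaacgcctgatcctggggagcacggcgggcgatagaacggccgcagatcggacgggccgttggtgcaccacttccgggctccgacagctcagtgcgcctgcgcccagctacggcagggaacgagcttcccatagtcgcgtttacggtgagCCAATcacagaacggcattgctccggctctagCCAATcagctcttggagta

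Of 70 cytosolic ribosomal protein genes 16 rose and 0 fell, a share near that of all genes (32 without F/F replicate 1; 8, 5 and 10 without F/F replicates 2, 3 and 5; 6 and 4 without wild type replicates 6 and 7; median 0.24). Of 23 muscle ubiquitin ligase and autophagy genes 4 rose and 5 fell (7 and 7 without F/F replicate 1; 2 rising without F/F replicate 2, 3 or 5 or wild type replicate 6 or 7). Lamp2, a lysosomal membrane protein, rose by 0.53 ± 0.12 and the atrophy ligase Trim63 (MuRF1) fell by 0.59 ± 0.14 (edgeR adjusted p = 0.00482 and 0.00826). Of 21 sterol genes 5 rose and 1 fell (2 rising without F/F replicate 2 or 3 and 3 without wild type replicate 6 or 7), with the epoxidase Sqle at 1.53 ± 0.32 and Fdft1, squalene synthase, at -0.94 ± 0.18 (edgeR adjusted p = 0.0039 and 0.00274). The 21 cytosolic heat shock genes had a median of -0.15, which was 0.13 on uncentred TPM, with Dnajb5 at -0.88 ± 0.15 and Hspb1 at 0.47 ± 0.20 (edgeR adjusted p = 0.00172 and 0.0809). The 50 tested genes nearest to Lmna by order on chromosome 3 (25 on each side, RefSeq order of GRCm38.p6) held 7 that rose and 10 that fell, with a median of 0.03.

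How far F/F replicate 1 had moved was described with genes called without it, counting those among the 14038 genes tested with all libraries. Of 3216 genes that rose in the other F/F hearts, 38.6% were above every wild type library in F/F replicate 1, and 42.5% of 2953 genes that fell were below every one. For each other F/F library, left out in the same way, the shares were 83.5 to 90.3% for genes that rose and 74.2 to 88.1% for genes that fell. Sets for the other F/F libraries were called with F/F replicate 1 included. They held 1688 to 2333 genes that rose and 1500 to 1923 that fell. A gene had to pass with F/F replicate 1 to enter them, so their shares are not of a like set. The wild type libraries are those used to call the genes, so these shares are a description. By list they differed widely in F/F replicate 1. Monocyte markers were outside the wild type range at 12 of 14 genes, complement at 10 of 14, cell death effectors at 11 of 18, p53 targets at 7 of 16 and TGF-beta signalling at 9 of 19. Collagen chains were outside at 1 of 18 genes, integrated stress response targets at 1 of 18, TNF and NF-kappaB signalling at 1 of 15, immediate early genes at 2 of 18 and fetal and stress genes at 1 of 11. Among genes that fell, 22 of 37 complex I genes, 38 of 61 mitochondrial ribosomal genes and 9 of 15 cardiomyocyte markers were outside, against 3 of 15 fatty acid and triglyceride genes and 1 of 12 endothelial markers.

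**Figure D4:**
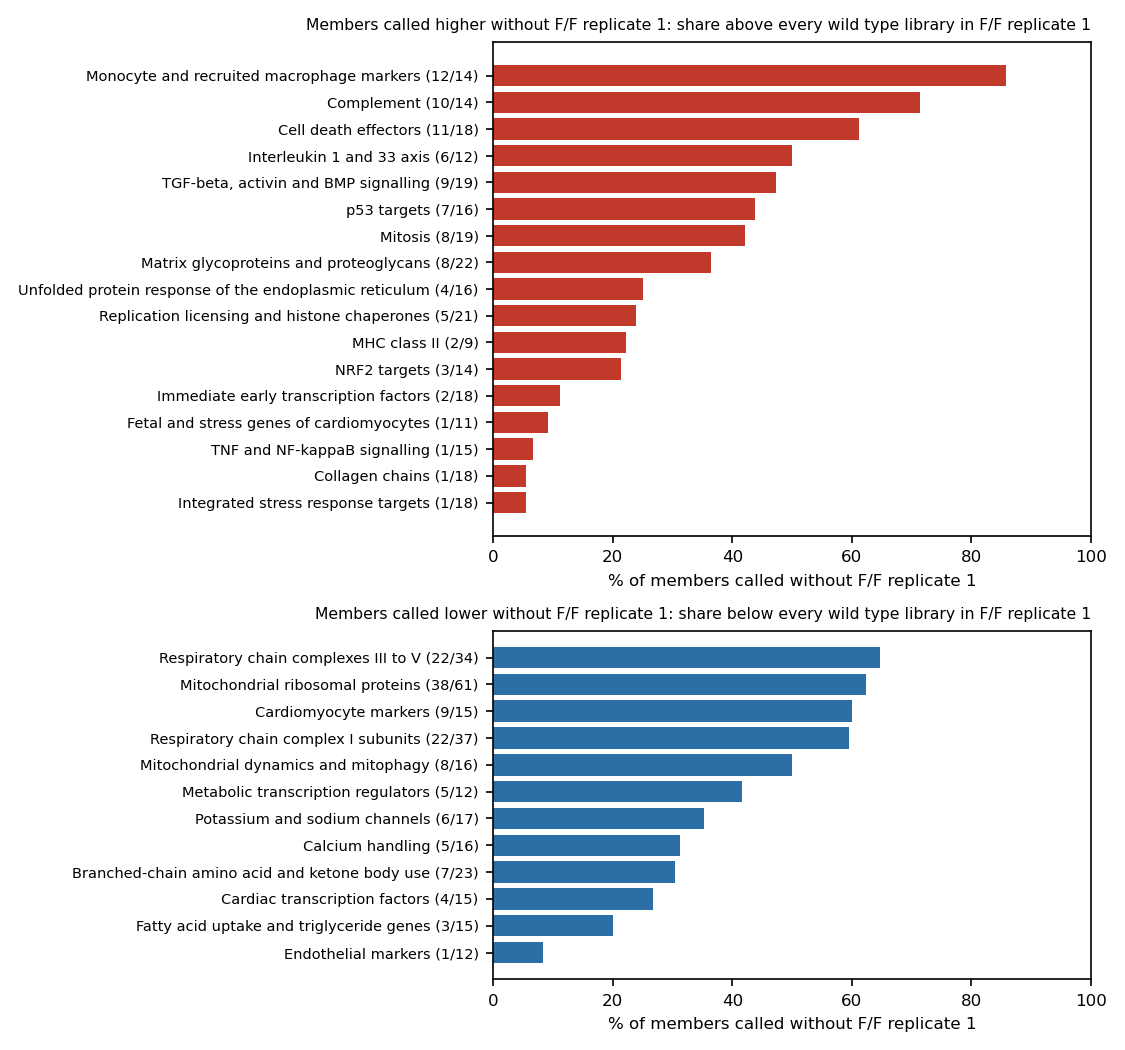
Share of the members of 17 selected gene lists called higher (red, above) or of 12 lists called lower (blue, below) without F/F replicate 1 that lay outside the range of the 7 wild type libraries in F/F replicate 1, in percent, with the counts in brackets. Monocyte and complement genes (12 of 14 and 10 of 14) are at the top of the lists shown in the upper panel and collagen chains and integrated stress response targets (1 of 18 each) at its bottom.

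The Lmna effect did not differ between male and female hearts or between pools at any gene at an adjusted p under 0.05 (edgeR, 0 genes in each test of the interaction, also with RLE size factors). Unadjusted p was under 0.05 for 250 and 870 of 14038 genes. These counts depended on single hearts: for sex, 14 genes passed without F/F replicate 1 and 451 without F/F replicate 3, and for pool, 787 passed without F/F replicate 2. Each of these fits leaves 1 F/F heart in an arm (1 male, or 1 in pool KIUC033), whose spread is then taken from the remaining groups. That heart is F/F replicate 1 in the sex fit without F/F replicate 3 and in the pool fit without F/F replicate 2. The pool fit without F/F replicate 1 also leaves 1 F/F heart in pool KIUC033, without a higher count. What gave the higher counts was not tested. Each pool holds few F/F hearts, and pool KIUC033 includes F/F replicate 1.

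**Figure D5:**
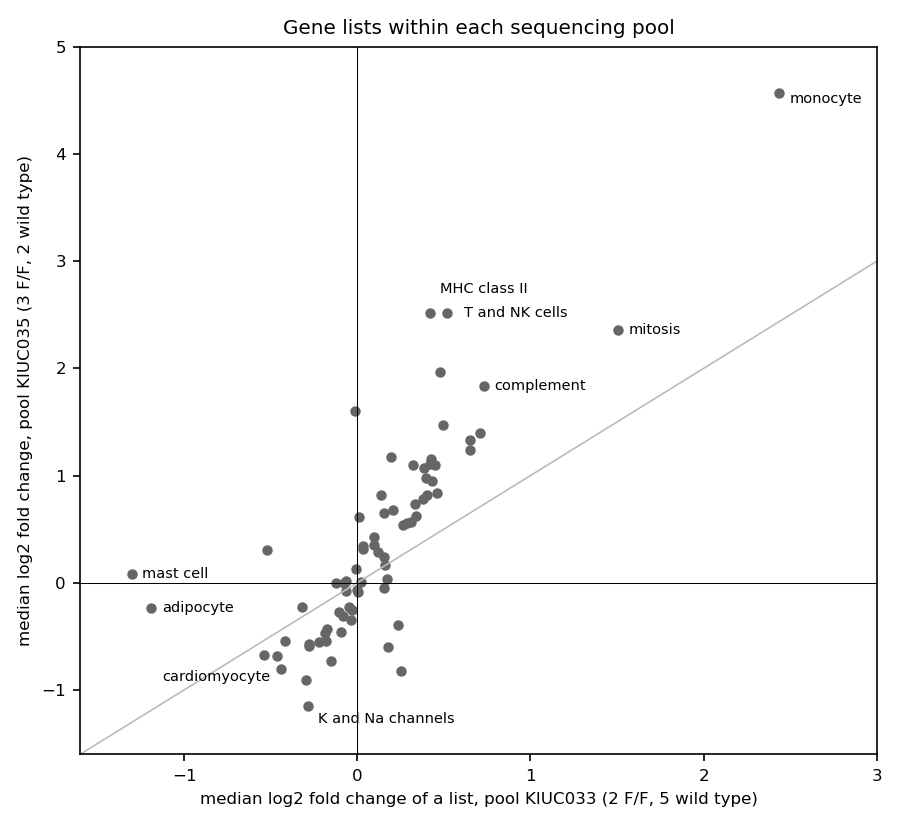
Median log2 fold change (F/F over wild type) of each of 74 gene lists within pool KIUC033 (x axis) and within pool KIUC035 (y axis), with the line of equal values. The monocyte list is at 2.44 and 4.57 and the cardiomyocyte list at -0.44 and -0.80; lists that lie above 0 in both pools are mostly above the line.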

How the data were processed

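Poly(A) RNA of 12 hearts was sequenced with a NEBNext directional kit. The authors deposited read counts per gene and TPM, and per the submitters' processing notes STAR 2.7.9 and the build mm39 were used; no source used here gives the strand setting of the counting. The deposited counts were the input of the main test, and the deposited TPM of an alternative; deposited CPM were not used. Genes were kept with edgeR's filterByExpr (minimum count 10, minimum total 15), scaled by TMM and tested with the quasi-likelihood test in edgeR 4.0.16 (R 4.3.3; limma 3.58.1, DESeq2 1.42.0 for alternatives), with pool and sex as covariates and Benjamini-Hochberg adjustment over 14038 genes. No pair of libraries held identical values (0 of 31 pairs within groups). Named genes came from Lmna, Cgas, the 10 called genes of largest change in each direction with a mean of at least 5 CPM and groups that do not overlap (unnamed and pseudogene symbols left out), the 3 called members of smallest p per list and direction, and anchor genes of the lists; not all of them are printed. The members and the gene lists were chosen with earlier results of these data known. Lists are described by counts and medians, without a test of the list. Total counts limit the precision of genes at low levels.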

Additional observations from a re-analysis of the deposited data

Results flagged for a closer look

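Of 366 groups of a named gene's values examined, 24 held a library farther from the others than Dixon's 95% limit; chance alone flags about 1 in 20 groups. The cause of none of them was tested.

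F/F replicate 1 was the highest F/F heart, apart from the other 4, for Tmem201 (41.0 CPM, the others 25.1 to 29.5), Timp4 (188 CPM, 20.4 to 66.9), Adrb1 (10.7 CPM, 5.31 to 5.79), Atp2a2 (5891 CPM, 2815 to 3584) and Dgat2 (249 CPM, 81.4 to 127). It was the lowest for Ankrd1 (2069 CPM, the others 5404 to 6611), Asns (3.67 CPM, 6.95 to 7.69), Ddit3 (35.5 CPM, 46.9 to 49.6), Egr3 (1.61 CPM, 3.48 to 3.88), Vcam1 (29.6 CPM, 45.7 to 47.3) and Sqle (0.707 CPM, 2.69 to 3.29).

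F/F replicate 3 stood apart for Esr1 (155 CPM, the others 920 to 1168), S100a9 (11.3 CPM, 2.61 to 3.02) and Angptl4 (175 CPM, 25.3 to 55.9), and F/F replicate 2 for Mki67 (15 CPM, 5.91 to 8.04).

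Wild type replicate 6 was apart from the other wild type hearts for Nppb (1063 CPM, the others 96.1 to 471), Sprr1a (0.376 CPM, 0 to 0.158), Psat1 (3.33 CPM, 4.47 to 4.84), Il1b (2.21 CPM, 0.286 to 0.840), Ccn2 (310 CPM, 74.0 to 154) and Esrra (155 CPM, 118 to 128). Wild type replicate 5 was apart for Nmrk2 (73.9 CPM, 4.71 to 10.8), Timp1 (11.0 CPM, 3.21 to 5.81) and Spp1 (2.94 CPM, 0.392 to 0.786).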

How the results depend on the processing

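Counts of genes higher and lower were 2593 and 2170 with edgeR. They stayed within 1.5 times with RLE scaling, DESeq2 (2773 and 2590), no filter, no sex term, no pool term and without mitochondrially encoded genes. They moved to 4166 and 813 with limma on TPM with a pseudocount of 1, to 4063 and 811 with a pseudocount of 0.1, to 4016 and 604 without a filter on TPM, to 1398 higher on centred TPM (chosen after seeing the data), to 709 and 106 against a fold change of 1.5, and to 204 and 145 within pool KIUC033. Leaving out 1 library gave 1691 to 3389 higher and 1505 to 2966 lower. No gene called both in the main test and in another setting turned its direction there. For genes that lost their call, the sign was examined only among named genes. Genes whose effect differed by sex numbered 0, 4 without a filter and 0 to 451 leaving out 1 library; by pool, 0, 140 without a filter and 0 to 787.

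Signs of genes that were not called turned as follows. On TPM (pseudocount 1, pseudocount 0.1, no filter) Emd had 0.0642, 0.0652 and 0.0642, Acta1 0.0483, 0.049 and 0.0483, and Pecam1 0.0149, 0.015 and 0.0149. Nqo1 had -0.0218 on centred TPM and -0.009 without wild type replicate 5 (-0.009 to 0.0755 leaving out 1 library). Within pool KIUC033 Atf4 had -0.0019, Ddit3 -0.2286, S100a9 -0.051 and Mcu 0.006. Myh7 had -0.1736 within pool KIUC035 and Myl7 0.0544 without F/F replicate 2 (-2.0249 to 0.0544 leaving out 1 library). The cause was not tested.

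Of 154 called genes among those chosen for naming, 149 were called the same way without the pool term (not Lonp1, Mt1, Timp4, Tmpo and Vegfa). The number was 153 without sex (not H2-Aa) and 153 with all 26 NEBNext libraries (not Cdh5). It was 132 on uncentred TPM, where 10 lost their call and the remaining genes were under the TPM filter; those lost were Aplnr, Cdh5, Cdkn1c, Gata4, Il11ra1, Lonp1, Nkx2-5, Smdt1, Sun1 and Trim63. It was 149 within pool KIUC035 (not Actc1, Lonp1, Lyve1, Nkx2-5 and Tmpo), 45 within pool KIUC033 and 81 against a fold change of 1.5. On uncentred TPM fewer members fell among cardiomyocyte (8), branched-chain amino acid (7), fatty acid (6), calcium handling (5), phosphagen (5), mitochondrial dynamics (4), adrenergic (3), angiogenic (3), cardiac transcription factor (2) and endothelial (1) genes, and 3 T and NK cell markers rose. On centred TPM fewer rose among TGF-beta (11), replication (10), collagen (8), interleukin 1 and 33 (7), metalloproteinase (6), interleukin 6 (5) and T and NK cell (2) genes.

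No paired analysis was possible because the replicate numbers were given in accession order and pair no hearts. Genes within 10 Mb of Lmna were not run, since the annotation at hand is of another build than the files.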
